A study of Homo sapiens with 6 samples.

Results

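The genes described here are the WNT ligands, their receptors and antagonists, and the components and targets that lie next to them in the pathway. They were read from Human Clariom S arrays of 2 lines of MDA-MB-231, an established human line from a triple-negative breast cancer. MDA-MB-231-hOSM carries pUNO1-hOSM, a vector for human oncostatin M (OSM), a cytokine of the IL-6 family, and MDA-MB-231-hC carries the empty pUNO1 vector. Both lines were stably transfected with 2 μg of vector and held under blasticidin at 10 μg/mL, so the hC cells had been through transfection and selection too. The labels name no added cytokine. RNA came from 3 passages of each line that did not follow each other, the lines were grown side by side, and the labels give 1 array of each line the same set number (n = 3 arrays per line). Separate transfections are not stated. The p-values thus rest on how the difference between 1 line of each kind varied over the 3 sets of passages. An effect of OSM and a chance event of transfection or selection cannot be told apart.

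A gene belonged to the group when the array annotation named it and it stood on a list of 56 genes, drawn up by their place in the WNT pathway. Earlier results of these data were known when the list was drawn up. Of these 56, 53 had a transcript cluster, the unit that the array reports, out of 21448 transcript clusters in all, and each of the 53 had 1. WNT9B, FZD8 and TCF7 had no named transcript cluster. The values are log2 signals, so that 1 unit is a 2-fold difference, and a transcript cluster was called when its Benjamini-Hochberg adjusted p over all 21448 was under 0.1 and its change was over 2-fold in limma with the set as a block. The deposited values of the 3 sets had nearly the same mean for most transcript clusters, with a median SD of the set means of 0.00764 beside 0.225 for the differences within sets. No source used here names the step that made them so. The step bears on the spread within each line, on the overlap of arrays and on fits without the block. The fit with the block rests on differences within sets, which taking out a shared set mean would leave as they are. Signals of different genes come from different probes and were not ranked against each other. In place of a detection call, the 95th percentile of the mean signals of 348 olfactory receptor genes, 5.78, served as a guide to background.

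OSM, the transfected gene, had log2 signals of 14.90, 14.82 and 14.69 in hOSM cells, against 5.06, 5.11 and 5.26 in hC cells, in the order of sets 1, 2 and 3, which is kept below. The array medians of the 6 arrays lay between 6.82 and 6.85. The 5 markers of a mesenchymal breast cancer line, VIM, CD44, EGFR, CAV1 and AXL, were all above the guide in both lines. Of 6 measured markers of luminal breast cells, KRT8, EPCAM and GATA3 were also above it in both. ESR1 and PGR, the hormone receptor genes, and FOXA1 were below it in both. KRT8 was called higher and EPCAM lower in hOSM cells. None of 7 fibroblast markers and none of 6 measured leukocyte markers was called. Of them, 5 and 4 were below the guide in both lines. The fibroblast markers COL1A1 and COL1A2 and the leukocyte markers CD68 and CD79A were above it in both. COL1A2 averaged 8.74 in hOSM and 8.85 in hC cells, and CD68 averaged 12.60 and 12.29. The leukocyte antigen PTPRC, below the guide, averaged 4.94 in hOSM cells and 5.07 in hC cells.

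WNT proteins are secreted, lipid-modified ligands that bind Frizzled receptors. In the canonical branch a Frizzled receptor pairs with LRP5 or LRP6, β-catenin escapes destruction and joins TCF and LEF factors on DNA, and feedback genes such as AXIN2 are switched on. In the branches that do not use β-catenin, ligands such as WNT5A act through ROR1, ROR2, RYK and Frizzled receptors, and the planar polarity proteins of the PRICKLE and VANGL families shape the cytoskeleton and cell movement. Both branches are studied in triple-negative breast cancer for their part in growth and invasion.

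Of the 53 measured genes, 7 (13.2%) were called, 3 higher and 4 lower in hOSM than in hC cells. The ligand WNT5A, the receptor ROR2 and the polarity gene PRICKLE2 rose, whereas the receptors FZD7 and ROR1, the polarity gene PRICKLE1 and the transcription factor LEF1 fell. Over all transcript clusters 4.14% were called, 2.6% higher and 1.54% lower. The shares were not compared by a test, and the genes were chosen with earlier results of these data known. Each of ROR2 and PRICKLE2, which rose, has a paralog, ROR1 or PRICKLE1, which fell. The arrays of the 2 lines did not overlap for these 7 genes, but the same held for 27 of the 53 genes (50.9%) and for 50% of all transcript clusters, so that a lack of overlap does not mark out a gene in these data. In RNA from whole cultures, fewer cells that express a gene and less of its RNA per cell cannot be told apart. The median log2 fold change of the 53 genes was −0.03, and that of all transcript clusters was −0.03 as well.

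**Figure D1:**
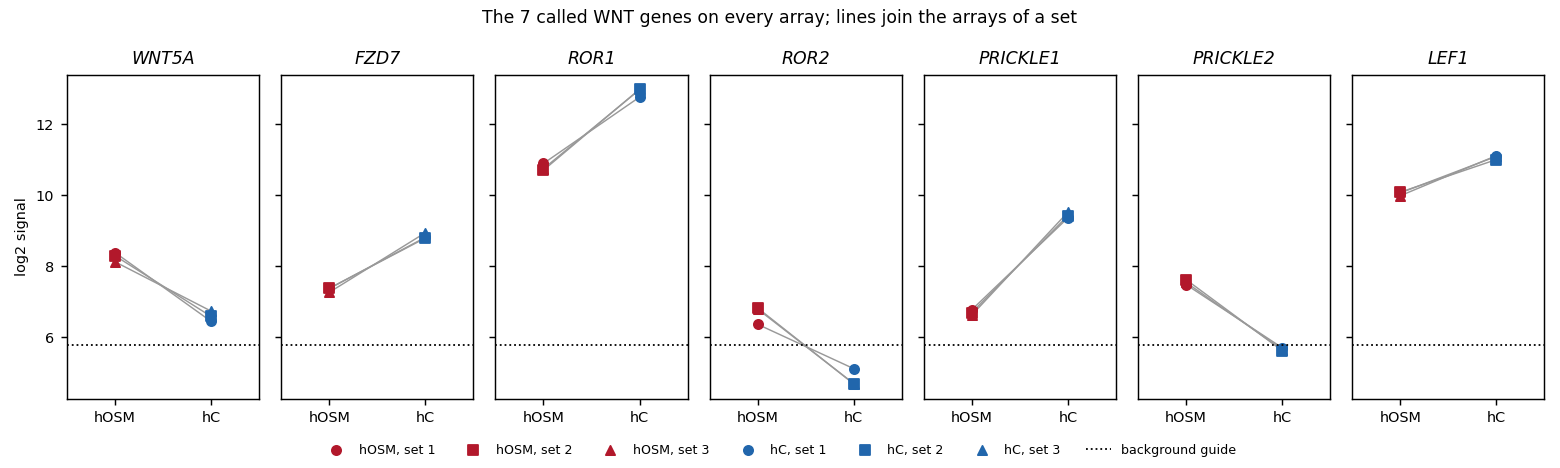
Log2 signal (y axis) of the 7 called WNT genes in MDA-MB-231-hOSM (red) and MDA-MB-231-hC (blue), with 1 point per array, marker shape for the set, a line joining the arrays of a set and a dotted line at the background guide of 5.78. WNT5A, ROR2 and PRICKLE2 were higher in every hOSM array and FZD7, ROR1, PRICKLE1 and LEF1 lower, and the hC arrays of ROR2 and PRICKLE2 lay below the dotted line.

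A further 8 genes passed the adjusted p of 0.1 without reaching 2-fold, which made 15 of 53 (28.3%) at the adjusted p alone, 4 higher and 11 lower. Of all transcript clusters 19.7% passed the adjusted p alone, 1977 higher and 2240 lower. Of the 53 genes, 27 lay below the background guide in both lines and 26 lay above it in at least 1 line.

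**Figure D2:**
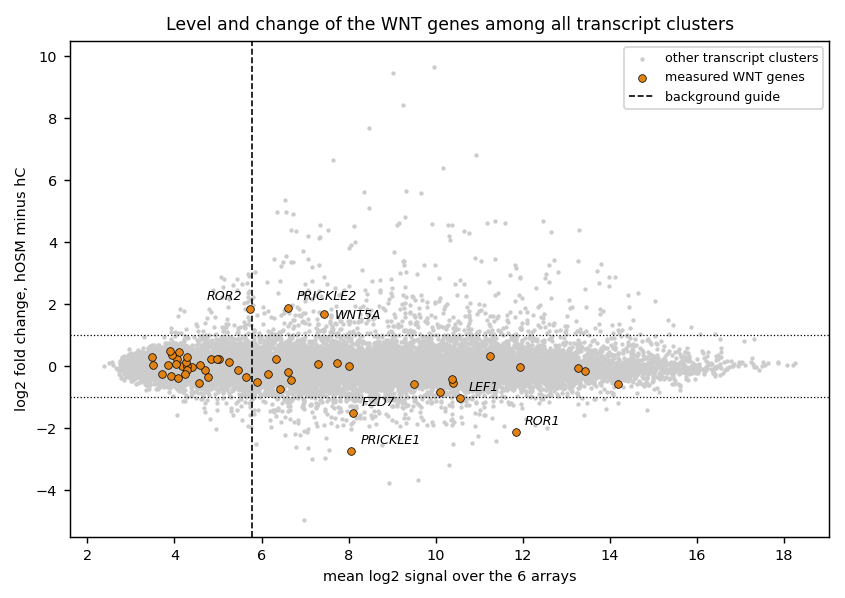
Mean log2 signal over the 6 arrays (x axis) and log2 fold change of MDA-MB-231-hOSM over MDA-MB-231-hC (y axis) for all 21448 transcript clusters (grey) and the 53 measured WNT genes (orange), with the background guide of 5.78 as a dashed line and 2-fold changes as dotted lines. Many WNT genes lie left of the dashed line near a change of 0, and the 7 called genes are labelled.

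Among the ligands, only WNT5A was called of 17 measured. WNT5A, the best known ligand of β-catenin-independent signaling, had log2 signals of 8.38, 8.29 and 8.12 in hOSM cells, against 6.44, 6.58 and 6.73 in hC cells. Every hOSM array was above every hC array, and the log2 fold change was 1.68 (SE 0.15, adjusted p = 0.00168), or 3.20-fold. WNT5B, its closest paralog, had 6.48, 6.48 and 6.54 in hOSM cells, against 6.72, 6.70 and 6.66 in hC cells, a log2 fold change of −0.19 with a 95% confidence interval from −0.48 to 0.09, and it did not pass the adjusted p. WNT10B, a ligand of the canonical branch, passed the adjusted p alone, with a mean log2 signal of 5.63 in hOSM and 6.16 in hC cells (log2 fold change −0.52, SE 0.16, adjusted p = 0.0850). The other 14 ligands, WNT1, WNT2, WNT2B, WNT3, WNT3A, WNT4, WNT6, WNT7A, WNT7B, WNT8B, WNT9A, WNT10A, WNT11 and WNT16, lay below the background guide in both lines. Of these, WNT2B passed the adjusted p, with a log2 fold change of 0.46 at a signal near background (adjusted p = 0.0626).

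Among 9 measured Frizzled receptors FZD7 was called. FZD7, a receptor often linked to canonical signaling in triple-negative tumors, had log2 signals of 7.37, 7.37 and 7.26 in hOSM cells, against 8.81, 8.79 and 8.94 in hC cells. It was thus 2.85-fold lower in hOSM cells, with no overlap between the lines (log2 fold change −1.51, SE 0.13, adjusted p = 0.00136). FZD1 had 10.07, 9.98 and 10.32 in hOSM cells, against 10.72, 10.82 and 10.49 in hC cells, and passed the adjusted p alone (log2 fold change −0.55, adjusted p = 0.0780). FZD2, the receptor most similar to FZD1 and FZD7, had a log2 fold change of 0.01 with a 95% confidence interval from −0.27 to 0.30. FZD2, FZD6 and the remaining receptors did not pass the adjusted p. FZD6, which acts in planar polarity, averaged 13.35 in hOSM and 13.51 in hC cells (log2 fold change −0.15, adjusted p = 0.457). FZD3, FZD4, FZD5, FZD9 and FZD10 had log2 fold changes from −0.25 to 0.22. Of the FZD genes only FZD9 and FZD10 lay below the guide in both lines.

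The ROR receptors changed in opposite directions. ROR1 and ROR2 encode receptor tyrosine kinases that bind WNT5A outside the cell. ROR1 had log2 signals of 10.89, 10.70 and 10.74 in hOSM cells, against 12.76, 12.98 and 12.97 in hC cells, a 4.37-fold lower signal (log2 fold change −2.13, SE 0.14, adjusted p = 0.000585). ROR2 had 6.36, 6.82 and 6.79 in hOSM cells, against 5.11, 4.68 and 4.69 in hC cells, a log2 fold change of 1.83 (3.56-fold higher, SE 0.20, adjusted p = 0.00363). All hC arrays of ROR2 were below the background guide and all hOSM arrays above it, so its fold sets a signal against a background level. By contrast, RYK, a kinase-like WNT receptor of another family, averaged 11.93 in hOSM and 11.96 in hC cells, with a 95% confidence interval of the log2 fold change from −0.31 to 0.25. Of LRP5 and LRP6, the coreceptors of the canonical branch, LRP6 passed the adjusted p. LRP6 averaged 9.21 in hOSM and 9.79 in hC cells and stayed below 2-fold (log2 fold change −0.58, SE 0.12, adjusted p = 0.0302). LRP5 had a log2 fold change of −0.40 that did not pass (adjusted p = 0.230), with overlapping arrays and a difference of 0.08 in set 3.

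The planar polarity genes held the second pair of opposite changes. PRICKLE1 and PRICKLE2 encode cytoplasmic proteins that act with VANGL at one side of the cell. PRICKLE1 had log2 signals of 6.77, 6.69 and 6.62 in hOSM cells, against 9.36, 9.42 and 9.52 in hC cells, and was 6.68-fold lower (log2 fold change −2.74, SE 0.13, adjusted p = 0.000205). PRICKLE2 had 7.48, 7.62 and 7.54 in hOSM cells, against 5.70, 5.62 and 5.65 in hC cells, a log2 fold change of 1.89 (3.71-fold higher, SE 0.12, adjusted p = 0.000585). Neither gene had overlapping arrays, and all hC arrays of PRICKLE2 lay below the background guide, so its fold too sets a signal against a background level. VANGL1, a membrane partner of the PRICKLE proteins, had 9.80, 9.63 and 9.61 in hOSM cells, against 10.42, 10.58 and 10.58 in hC cells, with no overlap between the lines, and passed the adjusted p but not the 2-fold limit (log2 fold change −0.85, SE 0.13, adjusted p = 0.0130). VANGL2 lay below the guide in both lines, at 4.61 in hOSM and 4.58 in hC cells. PRICKLE3, a further PRICKLE gene outside the group, averaged 6.07 in hOSM and 6.20 in hC cells. It did not pass the adjusted p (log2 fold change −0.13, adjusted p = 0.617).

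The windows around the start sites of the paired genes, and that of the canonical target DKK1, are shown as a description of their letters. A link between these letters and the changes was not tested. RefSeq promoters of GRCh38.p14, from 250 bases before to 50 after a start, were at hand for 37 of the 53 genes and for 6 of the 7 called, all but FZD7. They were searched on both strands for the STAT motif TTCNNNGAA and for the TCF and LEF motifs CTTTGAA or CTTTGAT or CTTTGTA or CTTTGTT. A STAT match can contain a TCF or LEF match, but none of the windows printed here held both. Matches are in capitals, and the sequences run 5′ to 3′ on the gene's strand.
ROR1, lower in hOSM, chr1:63773767-63774066, plus strand: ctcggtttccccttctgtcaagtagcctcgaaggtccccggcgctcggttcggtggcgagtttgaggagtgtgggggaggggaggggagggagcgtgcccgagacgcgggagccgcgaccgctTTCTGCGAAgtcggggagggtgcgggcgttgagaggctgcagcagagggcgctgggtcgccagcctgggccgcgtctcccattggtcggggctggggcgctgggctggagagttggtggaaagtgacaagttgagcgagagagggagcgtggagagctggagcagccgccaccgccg
ROR2, higher in hOSM, chr9:91950179-91950478, minus strand: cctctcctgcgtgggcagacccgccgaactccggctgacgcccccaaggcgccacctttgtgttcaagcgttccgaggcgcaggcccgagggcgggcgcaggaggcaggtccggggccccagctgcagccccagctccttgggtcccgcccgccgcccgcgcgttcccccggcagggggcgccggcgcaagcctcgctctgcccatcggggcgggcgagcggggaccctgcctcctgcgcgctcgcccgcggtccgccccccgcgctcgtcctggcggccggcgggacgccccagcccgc
PRICKLE1, lower in hOSM, chr12:42483566-42483865, minus strand: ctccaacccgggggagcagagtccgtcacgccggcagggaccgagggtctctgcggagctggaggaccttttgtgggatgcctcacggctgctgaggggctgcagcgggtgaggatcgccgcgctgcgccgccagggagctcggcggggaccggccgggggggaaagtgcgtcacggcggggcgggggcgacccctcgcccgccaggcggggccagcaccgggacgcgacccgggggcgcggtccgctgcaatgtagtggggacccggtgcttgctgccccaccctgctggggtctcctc
PRICKLE2, higher in hOSM, downstream start, chr3:64225417-64225716, minus strand: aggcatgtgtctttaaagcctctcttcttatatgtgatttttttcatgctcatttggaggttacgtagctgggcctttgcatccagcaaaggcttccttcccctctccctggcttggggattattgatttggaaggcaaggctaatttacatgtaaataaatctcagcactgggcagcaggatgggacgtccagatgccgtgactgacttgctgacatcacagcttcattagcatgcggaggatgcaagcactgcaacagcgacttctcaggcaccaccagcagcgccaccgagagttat
PRICKLE2, upstream start, chr3:64268124-64268423, minus strand: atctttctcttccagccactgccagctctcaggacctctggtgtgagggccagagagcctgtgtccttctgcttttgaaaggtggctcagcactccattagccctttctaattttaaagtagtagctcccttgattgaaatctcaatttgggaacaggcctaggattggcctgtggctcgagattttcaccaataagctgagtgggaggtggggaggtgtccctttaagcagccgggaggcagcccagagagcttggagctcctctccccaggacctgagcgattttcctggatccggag
DKK1, a canonical target, chr10:52314031-52314330, plus strand: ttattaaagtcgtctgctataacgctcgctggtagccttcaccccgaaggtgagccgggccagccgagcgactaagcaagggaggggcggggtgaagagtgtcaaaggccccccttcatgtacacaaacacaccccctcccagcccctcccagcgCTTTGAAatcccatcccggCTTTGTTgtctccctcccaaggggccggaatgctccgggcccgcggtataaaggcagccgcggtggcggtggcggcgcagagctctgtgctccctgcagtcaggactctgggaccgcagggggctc

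Of the 8 windows of called genes only that of ROR1 held the STAT motif, with its first base at position −127 from the start site, and none held a TCF or LEF motif. Among all 45 windows of the 53 genes 2 held the STAT motif (4.44%) and 3 a TCF or LEF motif (6.67%), against 7.66% and 13.8% of all 35116 windows. DKK1 had 2 TCF or LEF matches, at positions −95 and −76. The other TCF or LEF matches were in windows of WNT3 and TCF7L2, and the same TCF7L2 window held the other STAT match. The windows of LEF1 and RNF43, also canonical targets, held no match. The windows of ROR1 and ROR2 had a GC content of 69.0% and 79.7% and that of PRICKLE1 one of 75.3%, whereas the windows of PRICKLE2 had 49.0% and 53.3%, beside a median of 58.7% over all windows. A match describes the letters of these windows and not the binding of a factor, which was not measured.

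Among 8 secreted antagonists none was called. DKK1, which binds LRP5 and LRP6 and is itself a β-catenin target, was the only one above the background guide in either line. It had log2 signals of 13.78, 13.90 and 14.02 in hOSM cells, against 14.59, 14.47 and 14.40 in hC cells, so the lines did not overlap, and the lower signal passed the adjusted p alone (log2 fold change −0.59, SE 0.14, adjusted p = 0.0415). DKK2, DKK3, SFRP1, SFRP2, SFRP4, FRZB and WIF1, which encode further extracellular antagonists or Dickkopf relatives, were below the guide in both lines, with log2 fold changes from −0.35 to 0.29.

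Inside the cell, LEF1 was called of 6 measured components. LEF1, a DNA-binding partner of β-catenin, had log2 signals of 10.06, 10.08 and 9.98 in hOSM cells, against 11.09, 11.00 and 11.11 in hC cells (log2 fold change −1.03, SE 0.12, adjusted p = 0.00486). At 2.04-fold this decrease was close to the limit, and without both arrays of set 3 the gene was 1.97-fold lower (adjusted p = 0.0876). TCF7L2, a related factor, averaged 6.05 in hOSM and 6.79 in hC cells and passed the adjusted p alone (log2 fold change −0.74, SE 0.13, adjusted p = 0.0168). CTNNB1, which encodes β-catenin, averaged 13.24 in hOSM and 13.29 in hC cells, with a 95% confidence interval of the log2 fold change from −0.37 to 0.26. AXIN1, a scaffold of the β-catenin destruction complex, had a log2 fold change of 0.08 (adjusted p = 0.807). The arrays measure RNA and say nothing of the amount or location of β-catenin protein.

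LGR4 and LGR5, receptors for R-spondins, and RNF43 and ZNRF3, ligases that remove Frizzled receptors from the surface, held no called gene. LGR4 averaged 11.42 in hOSM and 11.09 in hC cells (log2 fold change 0.33, adjusted p = 0.288). LGR5 passed the adjusted p with a log2 fold change of −0.38, at 3.90 in hOSM and 4.28 in hC cells, both below the background guide (adjusted p = 0.0967). RNF43, also below the guide, had a log2 fold change of −0.53 (adjusted p = 0.102) and ZNRF3 one of −0.46 (adjusted p = 0.175).

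**Figure D3:**
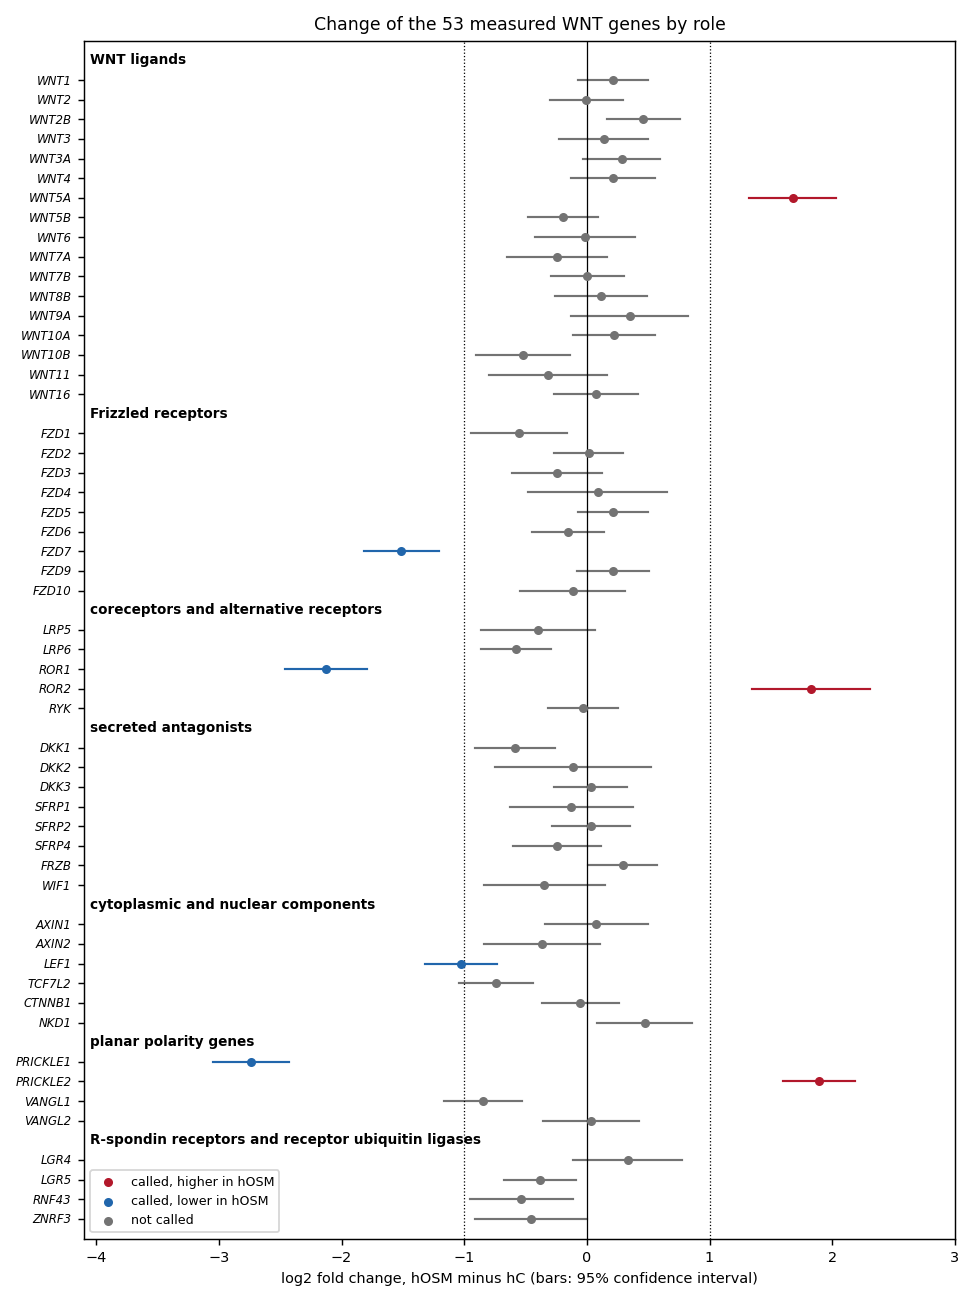
Log2 fold change of MDA-MB-231-hOSM over MDA-MB-231-hC (x axis) for the 53 measured WNT genes by role, with bars for the 95% confidence interval of limma with the set as a block (n = 3 arrays per line). WNT5A, ROR2 and PRICKLE2 stand to the right of the 2-fold line, and PRICKLE1, ROR1, FZD7 and LEF1 to the left.

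The canonical targets were then set beside the planar polarity genes. Of 7 measured canonical targets, LEF1, DKK1, RNF43, ZNRF3, LGR5, AXIN2 and NKD1, 1 was called, LEF1, which was lower in hOSM cells. Their median log2 fold change was −0.46, and 6 of the 7 had a negative value. AXIN2, the most widely used readout of canonical signaling, had log2 signals of 5.19, 5.62 and 5.58 in hOSM cells, against 6.12, 5.67 and 5.70 in hC cells, near the background guide (log2 fold change −0.37, adjusted p = 0.276). The difference was −0.93 in set 1, −0.05 in set 2 and −0.12 in set 3. NKD1, which binds Dishevelled and was the 1 target with a positive value, lay below the guide in both lines (log2 fold change 0.47, adjusted p = 0.112). Of the 4 planar polarity genes 2 were called, 1 in each direction, with log2 fold changes from −2.74 to 1.89 and a median of −0.41. Over all transcript clusters 4.14% were called and 53.8% had a negative value. Of the targets LGR5, RNF43 and NKD1, and of the polarity genes VANGL2, lay below the background guide in both lines. Among the further genes described below, 2 of 8 measured canonical targets and 0 of 12 measured planar polarity genes were called. The lists are short, and the difference between targets and polarity genes was not tested.

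**Figure D4:**
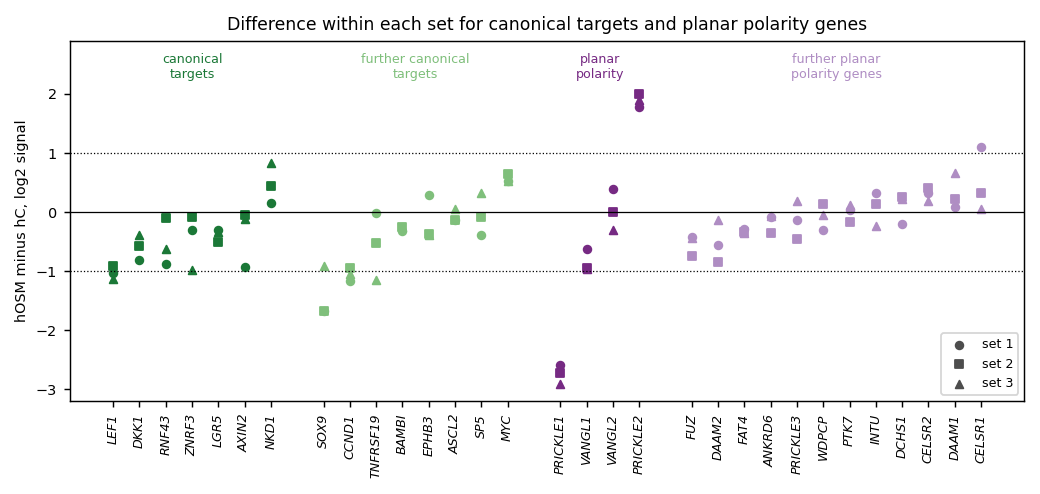
Difference in log2 signal of MDA-MB-231-hOSM minus MDA-MB-231-hC within each set (y axis; circle, square and triangle for sets 1, 2 and 3) for canonical targets and planar polarity genes among the WNT genes (dark colours) and for further genes of both kinds (light colours). The 3 sets of PRICKLE1 lie below −2 and those of PRICKLE2, whose hC signal was at background, above 1, while AXIN2 lies at −0.93, −0.05 and −0.12.

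A further 78 genes of the pathway, chosen by role with earlier results of these data known, stood outside the group. Of 72 measured, 4 (5.56%) were called, TPBG and TNIK higher and CCND1 and SOX9 lower in hOSM cells, a share near the 4.14% of all transcript clusters. TPBG, a membrane glycoprotein that in zebrafish inhibits LRP6 and β-catenin signaling, had log2 signals of 12.47, 12.59 and 12.80 in hOSM cells, against 10.42, 10.31 and 10.05 in hC cells (5.13-fold higher, adjusted p = 0.000749). TNIK, a kinase that acts with TCF7L2 in colorectal cancer cells, averaged 8.38 in hOSM and 6.99 in hC cells (2.61-fold higher, adjusted p = 0.0159), but was not called without both arrays of set 2 (adjusted p = 0.136) or of set 3 (adjusted p = 0.103). CCND1, which encodes cyclin D1, and SOX9, a transcription factor, are targets of β-catenin in other tissues. CCND1 averaged 13.34 in hOSM and 14.39 in hC cells (2.08-fold lower, adjusted p = 0.00440) and was at exactly 2-fold without both arrays of set 1 (log2 fold change −1.0). SOX9 averaged 10.31 in hOSM and 11.74 in hC cells (2.69-fold lower, adjusted p = 0.00640) and was not called without both arrays of set 2 (adjusted p = 0.105). MYC, another such target, passed the adjusted p in the other direction, below 2-fold (log2 fold change 0.56, adjusted p = 0.0331).

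Of 20 measured R-spondins, secretion factors and further extracellular regulators, TPBG alone was called, and WLS, which carries WNT proteins to the surface, averaged 12.14 in hOSM and 12.13 in hC cells (log2 fold change 0.01, adjusted p = 0.968). NOTUM, an esterase that removes the lipid from WNT proteins, passed the adjusted p with a log2 fold change of 0.81, but lay below the background guide in both lines. Of 32 transducers, TNIK alone was called. GSK3A and GSK3B, kinases of the destruction complex, had log2 fold changes of −0.53 and 0.48, which passed the adjusted p and stayed under 2-fold (adjusted p = 0.0448 and adjusted p = 0.0603). AMER1, a scaffold of the same complex, had a log2 fold change of −0.87 (adjusted p = 0.0214). Of 12 further planar polarity genes none was called. FUZ, a polarity effector of cilia, passed the adjusted p alone (log2 fold change −0.53, adjusted p = 0.0483), and PTK7, a polarity coreceptor, averaged 9.85 in both lines.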

How the data were processed

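Per the submitters' processing notes, the authors summarised Human Clariom S arrays with RMA in Transcriptome Analysis Console 4.0 and deposited 1 log2 signal per transcript cluster and array, rounded to 2 decimals. Of the library version, the genome build and any batch step, none is stated by the sources used here. A platform annotation gave 1 gene symbol to 17709 of 21448 transcript clusters and none or several to 3739. The deposited log2 signals of the 3 hOSM and 3 hC arrays were fitted with limma 3.58.1 (lmFit and eBayes, default settings, two-sided) in R 4.3.3, with the set as a block and Benjamini-Hochberg adjustment over all 21448 transcript clusters. A call needed an adjusted p under 0.1 and a change over 2-fold, the limits in the study's methods. Fold changes are hOSM over hC. Intervals cover 95%, with a precision limited by 3 arrays per line.

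The set numbers in the labels, for lines grown in parallel, gave the pairing. As a check, the deviations of same-numbered arrays from their line means correlated at −0.993, −0.995 and −0.992 in sets 1, 2 and 3, as mirror images would, so no shared set effect is left in the values. The block leaves 2 residual degrees of freedom, beside 4 without it.

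The 56 genes, their roles and the further lists were chosen with earlier results of these data known. Genes called are given on every array, those under the adjusted p alone by their log2 fold change, and the rest by counts, ranges and the paralog or defining gene of a role. The alternatives were no block, quantile normalization, centring on the array median, leaving out dim clusters, robust eBayes with a trend, and other limits for a call. Each set was also left out with the block kept, and each array with no block. The fit was tested on simulated data. Promoters are from RefSeq.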

Additional observations from a re-analysis of the deposited data

How the results depend on the processing

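OSM, the 7 called WNT genes, TPBG, TNIK, CCND1, SOX9, NFATC2, NFAT5 and PLCB1 had the same direction under every alternative that kept them. Genes that were not called were not followed in this way. WNT5A, FZD7, ROR1, PRICKLE1, PRICKLE2, TPBG and NFATC2 were called under all 14 alternatives and ROR2 under the 13 that kept it, since its mean over the 6 arrays lay under the limit when 8636 dim transcript clusters were left out. With no replicate block, 7 of the WNT genes and 893 transcript clusters were called, beside 7 and 888 in the paired fit, and none of the 7 WNT genes, TPBG, TNIK, CCND1, SOX9, NFATC2, NFAT5 and PLCB1 lost its call. Leaving out the block kept each log2 fold change as it was. With nearly equal set means it added residual degrees of freedom and little spread. The adjusted p of each of these genes fell, so the kept calls are no check on the paired fit. With an adjusted p under 0.1 and no limit on the fold, 15 WNT genes, 3 canonical targets, 15 other pathway genes and 4217 transcript clusters passed. Leaving out a set or an array gave 6 to 7 WNT genes, 0 to 1 canonical targets, 3 to 4 other pathway genes and 659 to 938 transcript clusters. Fits without a single array were run with no block. The array of that set left in mirrors the one left out, so these fits are no separate check of the paired calls. The canonical targets had 0 calls without both arrays of set 3 or without the hOSM array of set 3, since LEF1, at −0.98 and −1.0, was then under 2-fold, and 1 call otherwise. CCND1 was not called without both arrays of set 1 (log2 fold change −1.0), SOX9 without set 2 (−1.30, limma adjusted p = 0.105), and TNIK without set 2 (1.46, limma adjusted p = 0.136) or set 3 (1.05, limma adjusted p = 0.103). Each gene had 1 transcript cluster, so the use of another could not be run. Fits without a set leave 1 residual degree of freedom. A decrease of a gene near the background guide of 5.78 is hard to see on these arrays, and the 3 arrays per line limit all comparisons.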

Other observations

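The calcium branch of WNT5A signaling runs through phospholipase C, calmodulin-dependent kinase II, protein kinase C, calcineurin and NFAT factors. A list of 19 such genes was drawn up after values of these data had been seen, and 3 of the 18 measured were called, 1 higher and 2 lower in hOSM than in hC cells, with a median log2 fold change of 0. Over all transcript clusters 4.14% were called, and only NFATC2 of the 3 kept its call when each set was left out in turn, so nothing is read from the count. NFATC2, a transcription factor that calcineurin activates, had log2 signals of 5.71, 5.90 and 5.62 in hOSM cells, against 8.36, 8.25 and 8.52 in hC cells (log2 fold change −2.63, limma adjusted p = 0.000414), so that the hOSM mean was just under the background guide of 5.78. NFAT5, a relative that answers to osmotic stress rather than calcineurin, had 11.39, 11.32 and 11.62 in hOSM cells, against 10.43, 10.52 and 10.23 in hC cells (log2 fold change 1.05, limma adjusted p = 0.0101), and was not called without both arrays of set 3 (log2 fold change 0.88) or without either single array of that set. PLCB1, a phospholipase C, had 6.77, 7.08 and 7.44 in hOSM cells, against 8.57, 8.29 and 7.94 in hC cells (log2 fold change −1.17, limma adjusted p = 0.0304), and was not called without both arrays of set 1 (log2 fold change −0.86) or of set 2 (log2 fold change −1.15). The other 15 measured genes were not called.

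TCF7 had no transcript cluster by the array annotation used, but a gene list of the study pairs 1 with it. There it had log2 signals of 5.62, 5.58 and 5.78 in hOSM cells, against 5.71, 5.74 and 5.57 in hC cells, below the background guide on average in both lines (log2 fold change −0.01, limma adjusted p = 0.957).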
